A study of Mus musculus with 4 samples.

Results

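Imprinted growth-control genes are genes read from 1 parental chromosome that set fetal and postnatal growth. The set named here has 8 members, H19, Dlk1, Meg3, Peg3, Mest, Plagl1, Grb10 and Ndn, chosen by name, each read on its brightest row with a single gene symbol in the deposited table. Of the 8, 7 had such a row, among 22180 genes named in the same way. H19 had none and is described from the row it shares with Mir675, the miRNA gene inside it. In all, 12 rows named a member, 8 with a single symbol and 4 with several.

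The values come from primary osteoblast cultures of newborn mouse calvaria kept for 21 days in osteogenic medium with ascorbate and glycerol phosphate. Total RNA of each culture was hybridised to an Affymetrix Mouse Gene ST array. The 2 groups were Runx3f/f/Col1a1-cre cultures (floxed Runx3 alleles with a Cre driven by the promoter of the type I collagen gene Col1a1, which acts in collagen-producing cells) and wild-type cultures (WT), with 2 arrays each, called biological replicates 1 and 2. The labels give neither strain, sex nor whether wild-type mice were littermates, and do not say which animals or litters a replicate number stands for, so the p-values measure only the spread between these arrays. Runx3, the targeted transcription factor, had values of 7.94 and 8.06 on the arrays labelled as mutant, against 7.45 and 7.87 on wild-type arrays (log2 difference 0.34, SE 0.20, limma adjusted p = 1). As the targeted gene was not lower there, the groups are called mutant-labelled and wild type.

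Genomic imprinting marks a gene in the germ line, by DNA methylation at a control region, so that only the maternal or only the paternal copy is transcribed. Plagl1, Mest, Peg3, Ndn and Dlk1 are transcribed from the paternal copy, and H19 and Meg3, which make long non-coding RNAs, from the maternal copy. Grb10 is maternal in most tissues and paternal in neurons. Many of these genes are abundant in mesenchymal cells of the fetus and newborn and decline with age. The arrays do not separate the parental alleles, so each value is the sum of both.

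All values below are on the deposited scale, taken as log2, and each difference is mutant-labelled minus wild type. In bulk RNA, fewer cells of a type and less RNA per cell cannot be told apart. Mutant-labelled and wild-type arrays of the same number held exactly equal values for 35.8% of the tested genes in replicate 1, where no member tested did, and for 50.2% in replicate 2. How equal values arose was not tested. Differences within replicate 1 and within replicate 2 are given as values, without a test. The test is limma's moderated test over all 17841 genes that lay above a detection floor of 4.71 on at least 2 of the 4 arrays. Probe values do not measure amounts that can be set against each other between genes, so members are compared across arrays only. Summed levels of marker genes weight each gene by its probe response and are likewise compared across arrays only.

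Of the 7 members tested, 3 were higher on the mutant-labelled array within both replicates: Plagl1, Grb10 and Mest. Among all genes tested, 16.8% were. Ndn was lower within both replicates, as were 19.5% of all genes tested. Peg3, Dlk1 and Meg3 had exactly equal mutant-labelled and wild-type values in replicate 2, as those 50.2% of the tested genes did. Meg3 is counted here on its dim single-symbol row, whose neighbours lie mostly on the other strand. The brighter row that Meg3 shares with Mir770 differed by 0.08 and 0.16 and is not in these counts. No member was 1.5-fold apart in both replicates (background 2.63%), and 0 of 7 passed the adjusted threshold of 0.05 in limma, where 0 of all genes tested did (background 0.0%). At an unadjusted p under 0.05 there was 1 of the 7, Plagl1, which was higher, against a background of 3.96% in either direction, 2.06% higher and 1.9% lower. The median difference of the 7 was 0.11, the value of that dim Meg3 row, beside 0.00 over all genes tested.

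**Figure D1:**
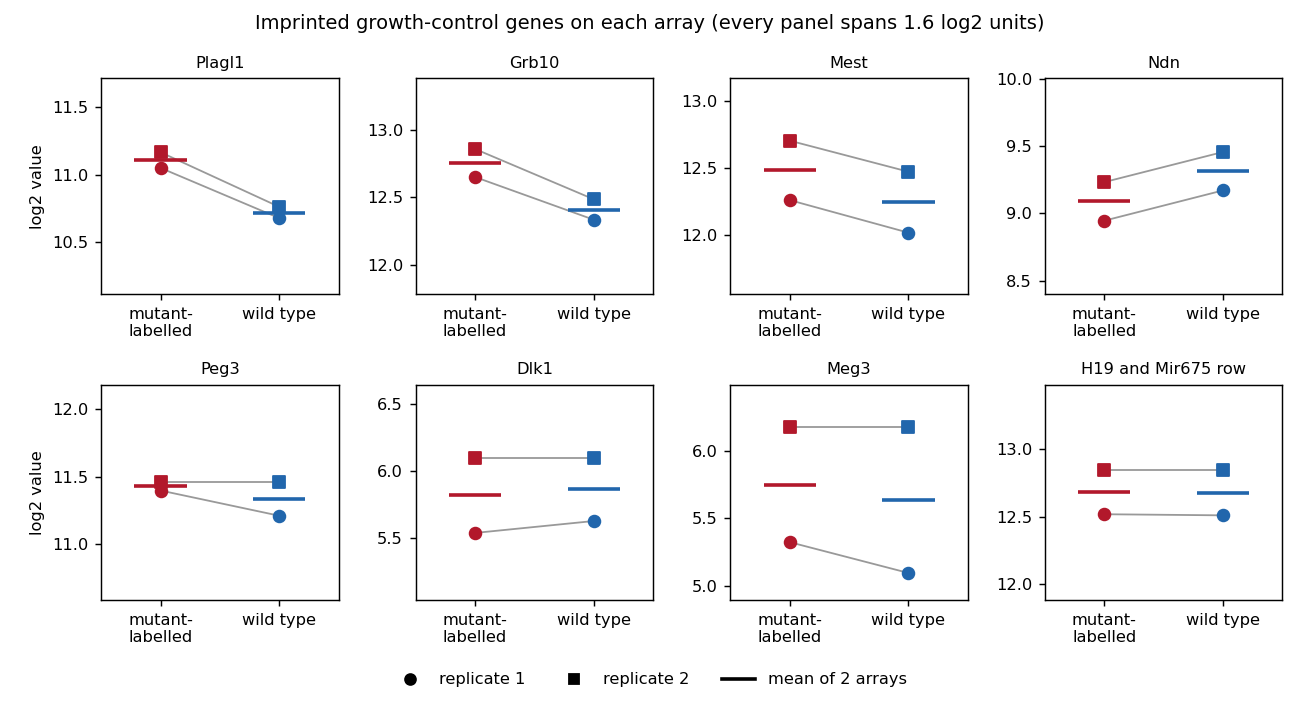
Values on the deposited log2 scale (y axis, each panel spanning the same range) for each member on the mutant-labelled arrays (red) and the wild-type arrays (blue); circles are replicate 1, squares replicate 2, grey lines join arrays of the same number and bars are means of 2 arrays. Both red points lie above both blue points for Plagl1 and Grb10, and in the other panels the groups overlap.

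Plagl1, also known as Zac1, encodes a zinc finger transcription factor that restrains cell division and, in mice, regulates other imprinted genes. It read 11.05 and 11.17 on the mutant-labelled arrays, against 10.68 and 10.76 on wild-type arrays. The groups did not overlap, as for 16.9% of the genes tested. It read 0.37 higher within replicate 1 and 0.41 higher within replicate 2, a mean of 0.39 (SE 0.13, 1.31-fold, 95% interval 0.020 to 0.76, limma unadjusted p = 0.0432, adjusted p = 1). With each array centred on its median the difference was 0.35 and its unadjusted p 0.275 in limma. After quantile normalization again it was 0.40 (limma unadjusted p = 0.0084, adjusted p = 0.322). With an intensity trend it was 0.39 (limma unadjusted p = 0.0072, adjusted p = 0.323). Averaged with the second, dim row it was 0.17 (limma unadjusted p = 0.429). As the dim row lay below the floor on all arrays, that average cannot test the difference in the bright row. With any 1 of the 4 arrays left out, which leaves 1 array in a group, the difference was 0.33 to 0.45. A second row named Plagl1 lay below the floor on all arrays, at 3.49 and 3.99 on the mutant-labelled arrays against 3.56 and 4.01 in wild type, and differed by -0.05. Plagl1 is on the plus strand, and the 20 named rows nearest to the dim row in number all belonged to genes on the minus strand of chromosome 10. Of the 20 nearest to the bright row, 19 were on the plus strand of that chromosome.

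Grb10 encodes an adaptor that binds the insulin and IGF1 receptors and limits growth. Its values were 12.65 and 12.86 on the mutant-labelled arrays and 12.33 and 12.49 on wild-type arrays, again without overlap. The difference of 0.35 (SE 0.15, 1.27-fold, 95% interval -0.09 to 0.78) did not pass (limma unadjusted p = 0.0906, adjusted p = 1). Its limma unadjusted p was 0.0132 after quantile normalization again and 0.0337 with an intensity trend, with adjusted p of 0.382 and 0.705. With each array centred on its median the limma unadjusted p was 0.295. Within the replicates it was 0.32 and 0.37. Plagl1 and Grb10 were at least 1.2-fold higher within both replicates, a threshold chosen after the values were seen, which 4.51% of the tested genes met. None of the 7 was 1.2-fold lower within both (background 3.76%).

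Mest, also called Peg1, encodes an enzyme of the alpha/beta hydrolase fold that is abundant in fetal mesoderm and in growing adipose tissue. It read 12.26 and 12.70 on the mutant-labelled arrays, against 12.02 and 12.47 in wild type. The groups overlapped, since the wild-type array of replicate 2 lay above the mutant-labelled array of replicate 1. The 2 within-replicate differences were 0.24 and 0.23, a mean of 0.24 (SE 0.26, 1.18-fold, limma adjusted p = 1). The gap between replicates was 0.44 in the mutant-labelled group and 0.45 in wild type, so it exceeded the difference between groups. With 1 array left out the difference was 0.0099 to 0.46.

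Ndn encodes necdin, a protein of the MAGE family that restrains cell division in neurons and adipocyte precursors. It was the only member of the 7 that read lower in both replicates, with 8.95 and 9.23 on the mutant-labelled arrays and 9.17 and 9.46 on wild-type arrays. Both within-replicate differences were -0.22 (SE 0.19, 1.17-fold lower, 95% interval -0.78 to 0.33, limma adjusted p = 1). The replicate gap of 0.29 in the mutant-labelled group and 0.28 in wild type was again wider than the difference between groups, and the groups overlapped. With the replicate block the limma unadjusted p was 0.00049 and the adjusted p 0.155. With 1 array left out the difference was -0.37 to -0.08.

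**Figure D2:**
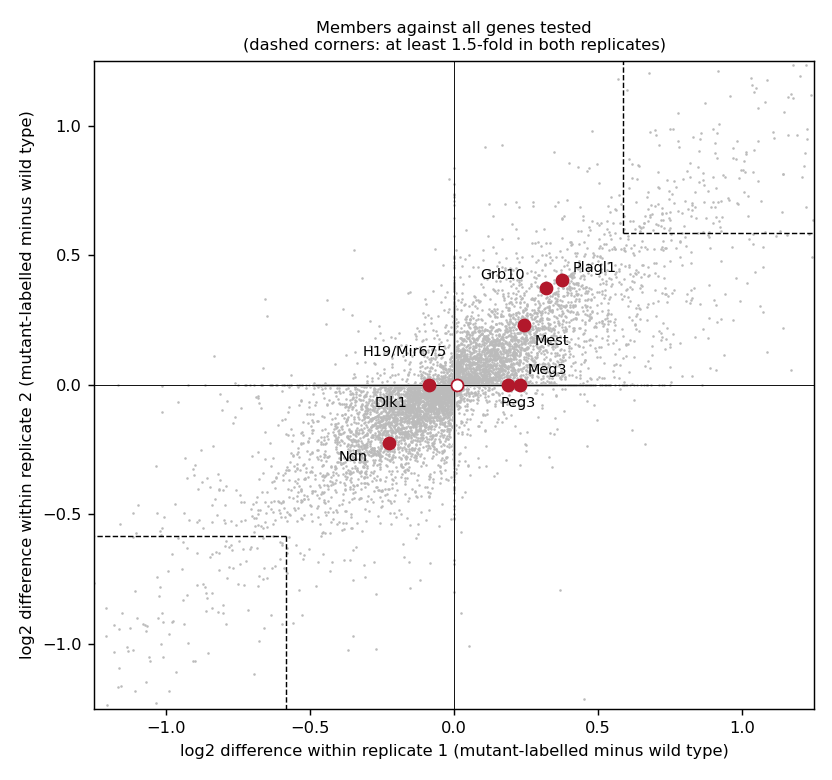
Log2 difference within replicate 1 (x axis) and within replicate 2 (y axis), mutant-labelled minus wild type, for all genes tested (grey, axes cut at 1.25) and the members (red; open for the row shared by H19 and Mir675); dashed corners mark 1.5-fold in both replicates. Plagl1, Grb10 and Mest lie in the upper right and Ndn in the lower left, all nearer 0 than the dashed corners, and Peg3, Dlk1, Meg3 and the H19 row lie on the line of 0 for replicate 2.

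Peg3, which encodes a large zinc finger protein that affects growth and maternal behaviour in mice, read 11.40 and 11.46 on the mutant-labelled arrays, against 11.21 and 11.46 in wild type. Replicate 1 differed by 0.19, and the arrays of replicate 2 held the same number to the last digit. The mean difference was 0.09 (SE 0.15, limma adjusted p = 1). The row shared with its antisense transcript Peg3os had 8.37 and 8.84 on the mutant-labelled arrays against 8.19 and 8.76 in wild type, differing by 0.18 and 0.07. The nearest 20 named rows place that row among genes of the plus strand of chromosome 7, whereas Peg3 is on the minus strand.

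Dlk1 encodes a membrane protein with EGF-like repeats, known as preadipocyte factor, that holds mesenchymal progenitors back from differentiating. On the mutant-labelled arrays it read 5.54 and 6.10, against 5.63 and 6.10 on wild-type arrays. All 4 values were above the floor, and the array pair of replicate 2 read higher than that of replicate 1. The differences were -0.09 within replicate 1 and 0 within replicate 2, and the 95% interval of the mean difference ran from -0.91 to 0.82 (limma adjusted p = 1), so these arrays do not show whether Dlk1 differed.

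Meg3, the maternally expressed RNA from the same cluster as Dlk1, was named by 3 rows. The row with Meg3 as its only symbol was dim, with 5.32 and 6.17 on the mutant-labelled arrays and 5.09 and 6.17 in wild type. Its nearest named rows lay mostly on the minus strand of chromosome 12 (17 of 20), while Meg3 is on the plus strand. The row shared with Mir770, a miRNA gene within Meg3, sat among plus-strand rows of chromosome 12 (20 of 20). It read 9.14 and 10.23 on the mutant-labelled arrays and 9.06 and 10.07 in wild type, with differences of 0.08 and 0.16. The last row, shared with Mir1906-1 and Mir1906-2, had 9.63 and 10.04 on the mutant-labelled arrays against 9.64 and 9.98 in wild type, and 19 of its 20 nearest named rows were on the minus strand of chromosome X, where RefSeq places Mir1906-2. Of these, the Mir770 row is the one whose neighbours share the chromosome and strand of Meg3. In none of the 3 rows did the groups separate. Replicate 2 exceeded replicate 1 in the Mir770 row by 1.09 in the mutant-labelled group and by 1.01 in wild type, and in the single-symbol row by 0.85 and 1.08.

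H19, a maternally expressed long non-coding RNA next to Igf2, shares its row with Mir675. The row read 12.52 and 12.84 on the mutant-labelled arrays, against 12.51 and 12.84 on wild-type arrays. Replicate 1 differed by 0.01 and replicate 2 held exactly equal values. In a fit over every row of the table the 95% interval of the difference was -0.65 to 0.66. Mir335, a miRNA gene inside Mest, had a row of its own with equal values within each replicate, 3.90 in replicate 1, below the floor, and 5.69 in replicate 2. Rows for miRNA genes read precursor or host transcript as well as any mature RNA. The mature products of these miRNA genes inside H19 and Mest, from RefSeq on GRCm38.p6, are shown to identify the RNAs that the 2 rows name, with the seed (bases 2 to 8) in capitals. miR-675-5p lies at chr7:142577112-142577133 and miR-675-3p at chr7:142577078-142577099, both on the minus strand; miR-335-5p lies at chr6:30741314-30741336 and miR-335-3p at chr6:30741354-30741375, both on the plus strand. No seed is shared among them.
miR-675-5p: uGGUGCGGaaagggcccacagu
miR-675-3p: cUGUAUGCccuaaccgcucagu
miR-335-5p: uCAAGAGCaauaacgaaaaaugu
miR-335-3p: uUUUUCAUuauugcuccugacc

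**Figure D3:**
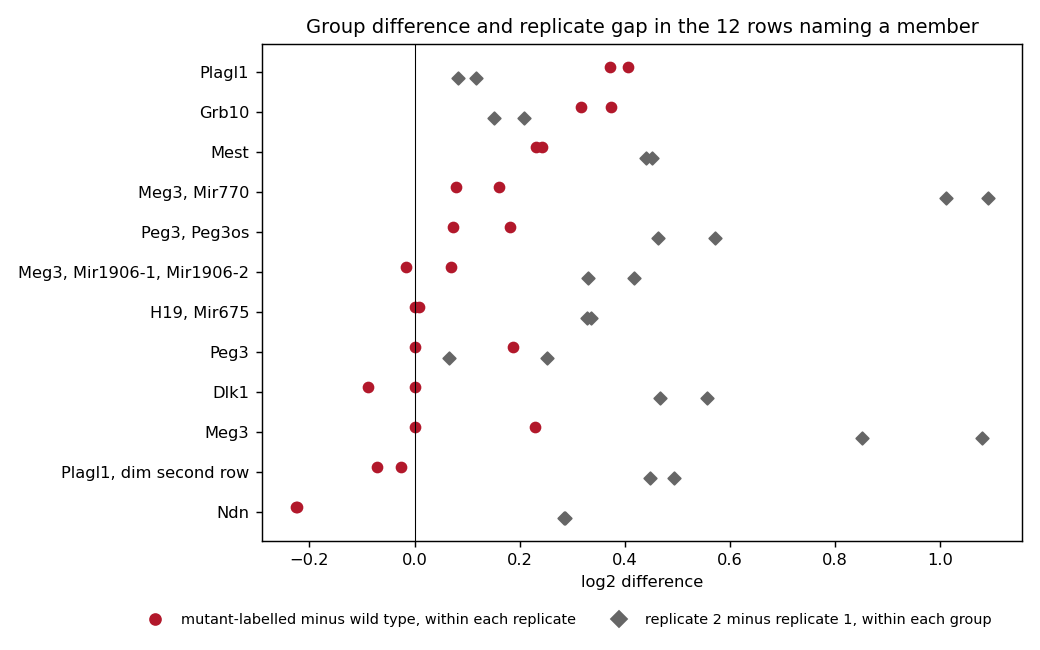
For the 12 rows that name a member, the log2 difference between mutant-labelled and wild-type arrays within each replicate (red circles) and between replicate 2 and replicate 1 within each group (grey diamonds). Both red circles lie beyond both diamonds for Plagl1 and Grb10 and in no other row; the single-symbol Meg3 row and the row shared with Mir770 have gaps between replicates of 0.85 to 1.09.

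Replicate 2 read higher than replicate 1 for every member in both groups, by 0.06 to 1.09 over the rows other than the dim Plagl1 row. Over all genes tested the median gap was 0.28 in each group. For 5 of the 7 members tested, all but Plagl1 and Grb10, the mean gap between replicates was wider than the difference between groups. The share of all genes tested with such a gap was not counted, so this is no trait of the members. Over all genes tested the quartiles of the difference between groups were -0.05 and 0.03, narrow beside that median gap. A gap shared by both groups cancels in the within-replicate differences.

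The members that read higher in both replicates were set beside the DNA upstream of their starts. RefSeq gave 11 windows of 250 bases for 7 members, none for H19. The core of the Runx binding motif is TGTGGT or TGCGGT on either strand. It was in 2 of the 11 windows, upstream of Dlk1 and of the first Meg3 start. That is close to the background, as 18.6% of 32851 windows in RefSeq held it. The windows of Plagl1, Grb10, Mest, Peg3 and Ndn held neither. TGCCGC, the core motif of the imprint-protecting factor Zfp57, was in 4 of the 11 windows: 1 copy for Plagl1, 1 for the first Meg3 start and 2 for each of 2 overlapping Mest windows. Of all windows, 8.68% held it. These are matches of letters and say nothing of binding in these cells.

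One window for each of the 3 members that read higher in both replicates is printed 5′ to 3′ from RefSeq on GRCm38.p6, with TGCCGC or its reverse complement in capitals. That of Plagl1 is chr10:13090582-13090831 on the plus strand, that of Mest chr6:30737800-30738049 on the plus strand and that of Grb10 chr11:12037421-12037670 on the minus strand. The Plagl1 window holds 19 CpG dinucleotides, the Mest window 14 and the Grb10 window 40, against a median of 6 over all windows, and the Grb10 count exceeds that of 98.7% of windows. Of the windows not shown, the other Grb10 start had 8 CpG and the first Mest start 7.
Plagl1: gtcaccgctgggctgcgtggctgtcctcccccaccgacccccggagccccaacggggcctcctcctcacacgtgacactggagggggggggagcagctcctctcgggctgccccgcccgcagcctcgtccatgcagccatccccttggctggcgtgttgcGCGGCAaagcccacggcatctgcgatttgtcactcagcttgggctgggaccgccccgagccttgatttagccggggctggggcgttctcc
Mest: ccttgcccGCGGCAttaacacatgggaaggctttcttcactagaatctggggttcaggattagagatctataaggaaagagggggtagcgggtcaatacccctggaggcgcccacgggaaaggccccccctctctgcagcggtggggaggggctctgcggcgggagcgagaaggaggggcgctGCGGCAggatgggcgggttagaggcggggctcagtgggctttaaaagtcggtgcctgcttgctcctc
Grb10: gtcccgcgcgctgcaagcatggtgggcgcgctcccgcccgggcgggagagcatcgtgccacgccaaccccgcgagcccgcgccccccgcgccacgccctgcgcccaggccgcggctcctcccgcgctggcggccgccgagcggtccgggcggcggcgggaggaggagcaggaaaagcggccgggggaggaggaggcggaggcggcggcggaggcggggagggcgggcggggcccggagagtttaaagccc

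Imprinted genes lie in clusters, and the neighbours of the members were read in the same way. In the H19 cluster, Igf2, the paternally expressed growth factor gene, read 9.74 and 10.02 on the mutant-labelled arrays, against 9.49 and 9.86 on wild-type arrays. Its differences were 0.26 and 0.16 (mean 0.21, SE 0.21, limma adjusted p = 1), while the H19 row next to it differed by 0.01 and 0. Ins2 lay below the floor on all arrays.

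Beside Mest, the carboxypeptidase gene Cpa4 was higher by 0.91 and 0.65, with 7.27 and 7.46 on the mutant-labelled arrays against 6.36 and 6.81 in wild type (limma unadjusted p = 0.0272, adjusted p = 1). Copg2, which overlaps the end of Mest, differed by -0.05 and 0, and Klf14 held equal values in both replicates. In the Grb10 cluster Cobl differed by 0.21 and 0.12 and Ddc by 0 in both replicates. Phactr2, beside Plagl1, differed by 0.18 in replicate 1 and held equal values in replicate 2.

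Around Dlk1 and Meg3, the long non-coding RNA Rian read 10.47 and 10.32 on the mutant-labelled arrays, against 10.42 and 10.32 in wild type. A second row, which Rian shares with DQ267100, differed by 0.52 and 0.18. The deiodinase gene Dio3 differed by -0.04 and 0. Begain and Wars read lower within both replicates, with differences of -0.07 and -0.22 for Begain and of -0.24 and -0.15 for Wars. Rtl1 had 6 rows, all shared with miRNA genes, and Mirg had 3 such rows. Their within-replicate differences ran from -0.12 to 0.21. The Peg3 neighbour Zim1 differed by 0.23 and 0.06, and Usp29 lay below the floor with equal values. All 5 neighbours of Ndn with a single-symbol row (Magel2, Mkrn3, Peg12, Ube3a and Atp10a) held equal values in replicate 2 (background 50.2%). Of these, 4 also did in replicate 1 (background for both replicates 25.7%). Snrpn shared its 2 rows with Snurf, which differed in opposite directions, by 0.12 and 0.10 in the dimmer row and by -0.23 and -0.15 in the brighter.

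**Figure D4:**
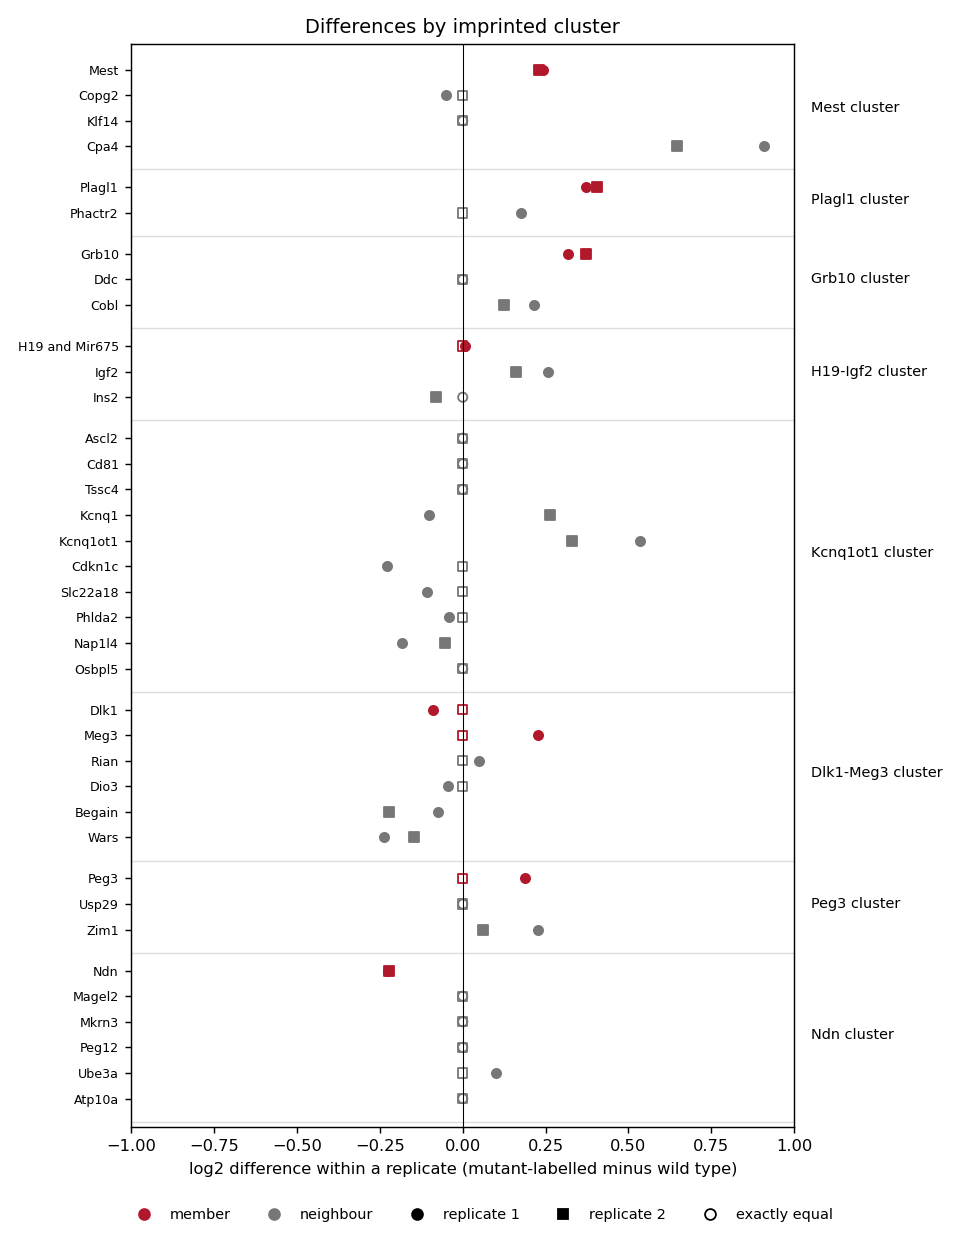
Log2 differences, mutant-labelled minus wild type, within replicate 1 (circles) and replicate 2 (squares) for members (red) and their cluster neighbours (grey), with exactly equal values drawn open at 0. Cpa4 beside Mest has the largest differences of the genes drawn (0.91 and 0.65). All 5 neighbours of Ndn sit at 0 in replicate 2, as do 50.2% of all genes tested.

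A wider list of 67 other imprinted genes had 55 with a single-symbol row and 51 above the floor. Adjusted p under 0.05 was reached by 0 of 51, and unadjusted p under 0.05 by 6 (11.8%, background 3.96%), 2 higher and 4 lower. With 1 array left out, 1 to 3 of the 51 did, against 276 to 420 of all genes tested. Within both replicates 7 read higher (13.7%, background 16.8%) and 8 lower (15.7%, background 19.5%), and 15 held equal values in both (29.4%, background 25.7%). In replicate 2, 35 held equal values (68.6%, background 50.2%). The median difference was 0.00, as over all genes tested.

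At least 1.5-fold apart in both replicates were 5 of the 51 (9.80%, background 2.63%). Besides Cpa4 these were Tfpi2, a protease inhibitor gene that is imprinted in placenta, higher by 0.90 and 0.63; Slc38a4, an amino acid transporter gene, with differences of -0.75 and -0.60; Gatm, the first enzyme of creatine synthesis, with -1.25 and -0.76; and Xist. Tfpi2 read 8.80 and 8.94 on the mutant-labelled arrays, against 7.90 and 8.31 in wild type. Slc38a4 read 9.98 and 10.18 on the mutant-labelled arrays, against 10.73 and 10.78 in wild type. Gatm, at 4.97 and 5.59 on the mutant-labelled arrays against 6.22 and 6.35 in wild type, was near the floor in the mutant-labelled group. None passed after adjustment (limma adjusted p = 0.950 for Tfpi2, 0.713 for Slc38a4, 0.953 for Gatm). Rasgrf1, the remaining gene at unadjusted p under 0.05, differed by -0.69 and -0.45. Several of these genes are imprinted mainly in placenta or brain, and the arrays do not show whether they are in these cultures.

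Xist, which coats and silences an X chromosome in female cells, differed by -1.28 and -1.42, and the Y-linked genes Eif2s3y, Kdm5d and Uty were higher by 1.90 to 2.66 within the replicates on the same arrays. The sex of the mice in each culture is not given in the labels. Sex and genotype cannot be told apart on these arrays for any of the members. The same holds for the other imprinted genes, and Xist itself is included in their counts above.

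The rows with the highest readings in the list, Dcn, Cd81 and H13, differed by at most 0.07 in either replicate. Kcnq1ot1, the long non-coding RNA that silences the neighbouring Cdkn1c cluster on the paternal copy, was singled out after its values were seen: it differed by 0.54 and 0.33 (mean 0.43, SE 0.25, limma adjusted p = 1). Cdkn1c itself, a maternally expressed cell cycle inhibitor gene, read 9.17 and 9.28 on the mutant-labelled arrays, against 9.40 and 9.28 in wild type.

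A list of 35 pathway partners covered IGF and insulin signalling, relatives and binding partners of the members, and regulators of imprints. All 32 with a single-symbol row were tested. Adjusted p under 0.05 was reached by 0 and unadjusted p under 0.05 by 1 (3.13%, background 3.96%), which was also the only gene 1.5-fold apart in both replicates. That gene was Pparg, the adipocyte transcription factor gene, at 9.84 and 9.60 on the mutant-labelled arrays against 10.60 and 10.31 in wild type (differences of -0.77 and -0.71, limma adjusted p = 0.895). Within both replicates 9 partners read higher (28.1%, background 16.8%) and 6 lower (18.8%, background 19.5%).

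Of the receptors and ligands that Grb10 and Igf2 act through, Igf1r differed by 0.00 and 0.01, Igf1 by -0.02 and 0, and Igf2r, the clearing receptor for IGF2 that is itself imprinted, by -0.03 and 0. The insulin receptor gene Insr read 9.49 and 9.62 on the mutant-labelled arrays, against 9.27 and 9.42 in wild type. Its groups did not overlap, as for 16.9% of the genes tested (mean difference 0.21, SE 0.14, limma unadjusted p = 0.207, adjusted p = 1). Irs2, the receptor substrate, read 10.02 and 10.04 on the mutant-labelled arrays, against 9.70 and 9.72 in wild type (0.32, SE 0.12, adjusted p = 1), and was picked after its values were seen. Igf2bp1, an RNA-binding protein of Igf2 and H19 transcripts, shared its row with Mir3063 and differed by 0.17 and 0. The highest readings of this list, Fn1, Cdkn1a and Maged1, differed by 0 and 0, by -0.15 and -0.20, and by -0.10 and -0.03.

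Of 41 miRNA genes in or beside the members or in the Gnas cluster, 28 had a row of their own and 23 of these were above the floor, most of them from the cluster downstream of Meg3. Neither the adjusted nor the unadjusted threshold was met by any (0 of 23 at unadjusted p under 0.05, background 3.96%), and 0 were 1.5-fold apart in both replicates (background 2.63%). Lower within both replicates were 6 (26.1%, background 19.5%), and higher within both were 3 of 23 (background 16.8%). The rows with the highest readings were Mir329, Mir341 and Mir673, which differed by 0.00 and -0.40, by 0.09 and 0.21, and by -0.14 and 0.20. Mir382, picked after its values were seen, had the widest mean difference of the 23. It read 7.82 and 8.02 on the mutant-labelled arrays, against 8.26 and 8.51 in wild type (-0.46, SE 0.17, limma unadjusted p = 0.0560, adjusted p = 1). Its mature products, from RefSeq on GRCm38.p6 with the seed in capitals, lie at chr12:109733781-109733802 and chr12:109733819-109733840 on the plus strand.
miR-382-5p: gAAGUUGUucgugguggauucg
miR-382-3p: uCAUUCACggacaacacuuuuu

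Marker genes of other cell types were read on the same arrays. All 12 macrophage markers were lower in both replicates, 11 of them by 1.5-fold or more each time; of all genes tested 19.5% were lower in both and 1.15% were 1.5-fold lower in both. Their summed level, as log2 of the sum of unlogged values, was 11.31 and 11.45 on the mutant-labelled arrays, against 12.96 and 13.07 on wild-type arrays. Of 10 mineralizing osteoblast markers 7 were lower in both, whereas Sp7 differed by 0.29 and 0.08 and Alpl by -0.07 and 0. The sums over the 10 were 14.19 and 14.34 on the mutant-labelled arrays against 14.61 and 14.79 in wild type. Ibsp had the widest mean difference of the 10, at -1.55. The collagen gene Col1a1, whose promoter drives the Cre, read 13.45 and 13.57 on the mutant-labelled arrays, against 13.47 and 13.57 in wild type. Of the adipocyte markers, 6 of the 7 tested were lower in both (sums of 11.20 and 11.07 on the mutant-labelled arrays against 11.84 and 11.64 in wild type), while Adipoq was above the floor on 1 array only. Of 6 proliferation markers and of 6 chondrocyte markers, 5 each were lower in both. Of 5 endothelial markers, Cdh5 and Emcn were at least 1.5-fold higher in both (background 1.47%). Emcn lay below the floor in wild type, at 3.76 and 4.42. Pecam1 differed by -0.15 and 0, Kdr by 0 and 0, and Tek by 0.58 and -0.02. Cdh5 alone read 8.63 and 8.41 on the mutant-labelled arrays, against 6.93 and 7.13 in wild type, and adds the most to the endothelial sums of 9.07 and 9.09 on the mutant-labelled arrays against 7.87 and 8.36 in wild type. The part of these differences in those of Plagl1, Grb10, Mest and Ndn was not tested.

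The labels' tissue tag reads myoblast, whereas titles and cell type read osteoblast. The brightest of 9 muscle markers, Des, a filament protein gene, read 8.11 and 8.24 on the mutant-labelled arrays, against 7.59 and 7.99 in wild type. The other 8 did not read higher in both replicates. The skeletal muscle regulators Myod1 and Myog held equal values within each replicate, 5.45 and 6.42 for Myod1 and 5.95 and 6.72 for Myog in replicates 1 and 2, and Myh3 lay below the floor on all arrays. The summed level of the 9, to which Des adds the most, was 9.30 and 9.66 on the mutant-labelled arrays, against 9.11 and 9.60 on wild-type arrays. Ibsp, a bone matrix protein gene and the osteoblast marker with the widest mean difference, read 11.31 and 11.66 on the mutant-labelled arrays. In wild type it read 12.87 and 13.19.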

How the data were processed

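RNA of 4 cultures, 2 per group, was measured on arrays. The deposited values are taken as log2, since per the submitters' processing notes the authors used Partek and RMA (no version, role or order given) and the values run from 2.26 to 14.1. No source used here gives the log base, any centring, or which arrays were normalized together. Of 41345 rows, 23521 had 1 gene symbol in the platform annotation, 1814 several and 16010 none listed; all 4 value columns were mapped to samples. The single-symbol row with the highest mean stood for a gene. Rows for 1405 odorant and pheromone receptor genes set the floor of 4.71, at percentile 90 of their means. The fit was lmFit and eBayes in limma 3.58.1 (R 4.3.3), two-sided, group as the only term, with Benjamini-Hochberg adjustment over 17841 genes. It was tested on simulated data with wider differences than those of the members and without exactly equal values. That trial therefore does not show how the fit treats differences of the members' size or the equal values. The members, lists and tests were chosen with earlier results of these data known. Genes named outside the members were those 1.5-fold apart in both replicates, the 3 highest readings of each list and a set list of genes, unless stated otherwise; cluster neighbours were added after values were seen. No member was 1.5-fold apart in both replicates, so no genes of like pattern were named. Alternatives covered the floor, normalization, choice of row, variance model, replicate block and each array left out. The number of arrays limits the precision of every value.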

Additional observations from a re-analysis of the deposited data

How the results depend on the processing

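In the alternatives run on all 4 arrays, the 7 tested members kept the sign of their difference and none passed the adjusted threshold, and the H19 row ran from -0.035 to 0.028. Plagl1 no longer met the unadjusted threshold with arrays centred on their medians (difference 0.35), with the mean of its bright and dim rows (0.17) or with every row in the fit (0.39). Plagl1 met it after quantile normalization again (0.40) and with an intensity trend (0.39). Grb10 also met it after quantile normalization again (0.35) and with an intensity trend (0.35). Grb10 did not with arrays centred on their medians (0.31), with the mean of its rows (0.35) or with every row in the fit (0.35). Leaving out each array in turn gave 0.33 to 0.45 for Plagl1, 0.24 to 0.45 for Grb10, 0.0099 to 0.46 for Mest, -0.37 to -0.08 for Ndn, -0.032 to 0.22 for Peg3, -0.32 to 0.23 for Dlk1, -0.43 to 0.65 for Meg3 and -0.16 to 0.17 for the H19 row. Peg3 turned without wild-type replicate 1 (-0.032), Dlk1 without mutant replicate 1 (0.23) or wild-type replicate 2 (0.19), and Meg3 without mutant replicate 2 (-0.31) or wild-type replicate 1 (-0.43); by construction the gap between replicates then enters the difference. Of all genes, 0 passed the adjusted threshold, 49 with an intensity trend and 335 with the replicate block and quantile normalization again. At unadjusted p under 0.05, 707 of 17841 genes became 1306 when quantile normalized again, 2319 under the replicate block, 3605 with the block and quantile normalization, and 276 to 420 with an array left out. At 1.5-fold in both replicates 469 genes became 1474 at 1.2-fold, chosen after the data were seen. A fit over all 41345 table rows, which counts rows and not genes, gave 1248 rows at unadjusted p under 0.05 and 1215 at 1.5-fold in both replicates. The labels do not say that a replicate number marks a shared litter or day. Same-numbered arrays deviated together (Pearson r = 0.92 across genes, which are not independent). This r is in part fixed in advance: the 25.7% of tested genes with equal values in both replicates deviate identically by construction. It cannot show what a replicate number stands for. With the replicate block Plagl1, Grb10, Mest and Ndn reached unadjusted p under 0.05 (4 of 7, beside 2319 of 17841 genes), and 0 of 7 passed after adjustment. The lowest adjusted p of a member in limma, 0.0504, was that of Plagl1 with the block and quantile normalization again. Precision is limited by 2 arrays a group.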
